A study of Homo sapiens with 6 samples.

Results

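The protein-coding genes for mitochondrial ribosomal proteins were taken from the expression table by their names, as every protein-coding row named MRPL or MRPS with a number and at most 1 further letter. This gave 78 genes of 58825 in the table, 49 named MRPL and 29 named MRPS. They were measured in T24, a cell line established from human bladder carcinoma. The control group was 3 libraries with the hairpin shNC-1 (genotype given as WT), and the knockdown group was 3 libraries with shDLGAP5-1, a hairpin that targets the spindle protein DLGAP5. A single hairpin represents the knockdown, and separate cultures are not stated for the libraries of a group. The p-values therefore describe the spread between these samples alone, which may be technical. Library values are listed in the order of replicates 1, 2 and 3 throughout.

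Mitochondria carry their own ribosome, which makes the few respiratory chain proteins that mitochondrial DNA encodes. Its RNA is transcribed inside the organelle, whereas its proteins are all encoded in the nucleus, made in the cytosol and imported. The large subunit joins amino acids and the small subunit reads the messenger. Many of the proteins descend from bacterial ribosomal proteins, and others arose in mitochondria, most of them with no bacterial counterpart.

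The values were read as FPKM (fragments scaled to transcript length and library size), a unit that no header names. Depth was estimated from the smallest steps of low single-exon genes at about 13700000 to 27600000 fragments per library. The 3 shDLGAP5-1 libraries were the shallower ones, at 18300000 or less. DLGAP5 itself measured 32.98, 32.7 and 29.68 FPKM against 5.03, 4.0 and 7.51 FPKM, control before knockdown (log2 fold change −2.37, standard error 0.20, limma adjusted p = 0.000894). Of the genes that mark the line, the keratins KRT7, KRT8 and KRT18 and the filament gene VIM had at least 236.74 FPKM in every library. KRT19, also a keratin, was at 10.56 to 20.92 FPKM and fell by 0.76 on the log2 scale (limma adjusted p = 0.00438), and EPCAM, an epithelial surface protein, was at 0.77 to 1.18 FPKM. Summed over 14 leukocyte markers the level was 3.21 to 23.7 FPKM in 5 libraries and 760 FPKM in shDLGAP5-1 replicate 3, most of it LYZ, with CD3D, CD3E, MS4A1 and FCGR3A listed at 0 everywhere. Without LYZ the sum ran from 2.6 to 73.9 FPKM. LAPTM5 (34.73 FPKM), TYROBP (11.24 FPKM) and PTPRC (7.03 FPKM) were also highest in shDLGAP5-1 replicate 3. So were S100A8, S100A9, NKG7 and CSF1R, whereas CD14 and CD79A were not. Fibroblast markers (6 genes) summed to 1.16 to 6.54 FPKM, endothelial markers (4 genes) to 0.0419 to 8.46 FPKM with the highest value again in that library, and erythroid markers (3 genes) to at most 0.0145 FPKM. Of the endothelial markers, PECAM1 had 8.45 FPKM in that library, and CDH5, KDR and VWF had at most 0.05 FPKM in any. In bulk libraries, fewer cells of a type and less RNA per cell cannot be told apart.

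All 78 genes were expressed, and 76 of them had at least 5 FPKM in each library. The mean over the 6 libraries lay between 10 and 100 FPKM for 68 genes, above 100 for 3 and below 10 for 7, a 55.8-fold span between the highest and the lowest. The median was 29.1 FPKM, against 10.7 FPKM over all 11259 protein-coding genes tested. MRPL12, the protein of the flexible stalk that recruits translation factors, had the highest level. Its values were 125.76, 131.28 and 162.83 FPKM in the controls and 131.48, 117.96 and 101.76 FPKM after knockdown, with overlapping groups. MRPL41, a mitochondria-specific protein of the large subunit, followed with a mean of 104 FPKM, then MRPL15 with 101 FPKM and MRPL33, a small protein of bacterial descent, with 92.7 FPKM. At the low end, MRPL23, which sits near the exit of the peptide tunnel, had 1.82, 0.99 and 2.06 FPKM in the controls and 1.78, 1.82 and 5.33 FPKM after knockdown. MRPL42, mitochondria-specific, had a mean of 5.75 FPKM, MRPL50, also mitochondria-specific, 7.57 FPKM and MRPL30, of bacterial descent, 7.74 FPKM. Of the 77 neighbouring pairs in this order, 0 had 6 values that lay wholly above the 6 values of the next gene, so the order is that of the means only.

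**Figure D1:**
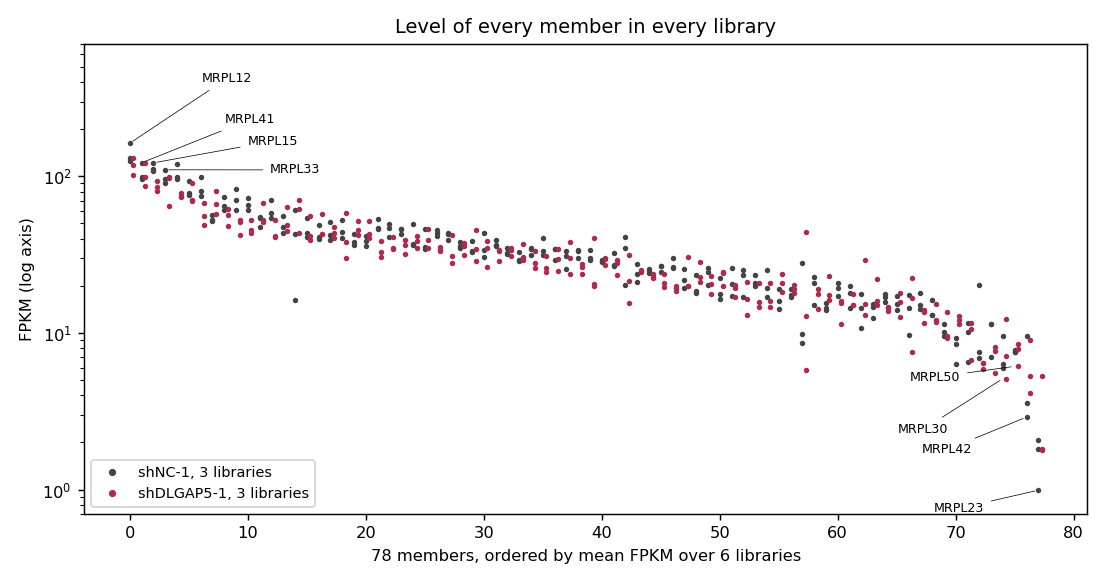
FPKM (vertical log axis) of each of the 78 genes in each library, with genes ordered by their mean over 6 libraries; grey points are shNC-1 and red points shDLGAP5-1, 3 libraries each. The means run from 129 FPKM for MRPL12 to 2.3 FPKM for MRPL23, and the points of both groups overlap for most genes.

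Few of these genes changed after DLGAP5 knockdown, and nearly all of those that did were lower. MRPL20, MRPL28, MRPS7, MRPL39, MRPL37, MRPL51, MRPL15 and MRPS18B fell, by 0.34 to 0.55 on the log2 scale, and MRPS25 rose by 0.55. Thus 8 of 78 were lower (10.3%) and 1 was higher (1.28%) by limma at an adjusted p under 0.05 over all 12714 genes tested, with a further 69 that did not pass. Across all genes tested, 9.52% were lower and 15.3% higher by the same rule, 24.8% in either direction, so the share of falls among the 78 was near the background and that of rises under it. At an unadjusted p under 0.05, 17 of the 78 passed. The share of all genes tested at that threshold was not counted, but it cannot be under their 24.8% at the adjusted one. The median log2 fold change of the 78 genes was −0.10, with 47 negative and 31 positive estimates, against 0.03 over all genes tested. The median size of the change, without its sign, was 0.21 against 0.29 over all genes tested.

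The number of calls changed when 1 library was left out or the scaling was changed. Leaving out control replicate 1, 2 or 3 turned the 8 falls into 1, 0 and 0, and leaving out knockdown replicate 1, 2 or 3 turned them into 10, 1 and 2, in fits that also hold fewer samples. MRPS25 still passed when control replicate 3 was left out and in no other of these 6 fits. MRPL43 rose when knockdown replicate 3 was left out. Over all genes tested, 10.5% to 24.7% passed in these fits. After scaling all columns to one total, 14 were lower and 0 higher, with median-ratio scaling 12 and 0, and with the trend of each library with gene length removed 17 and 1. With these settings, in that order, 21.0%, 26.1% and 28.5% of all genes tested passed in either direction.

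**Figure D2:**
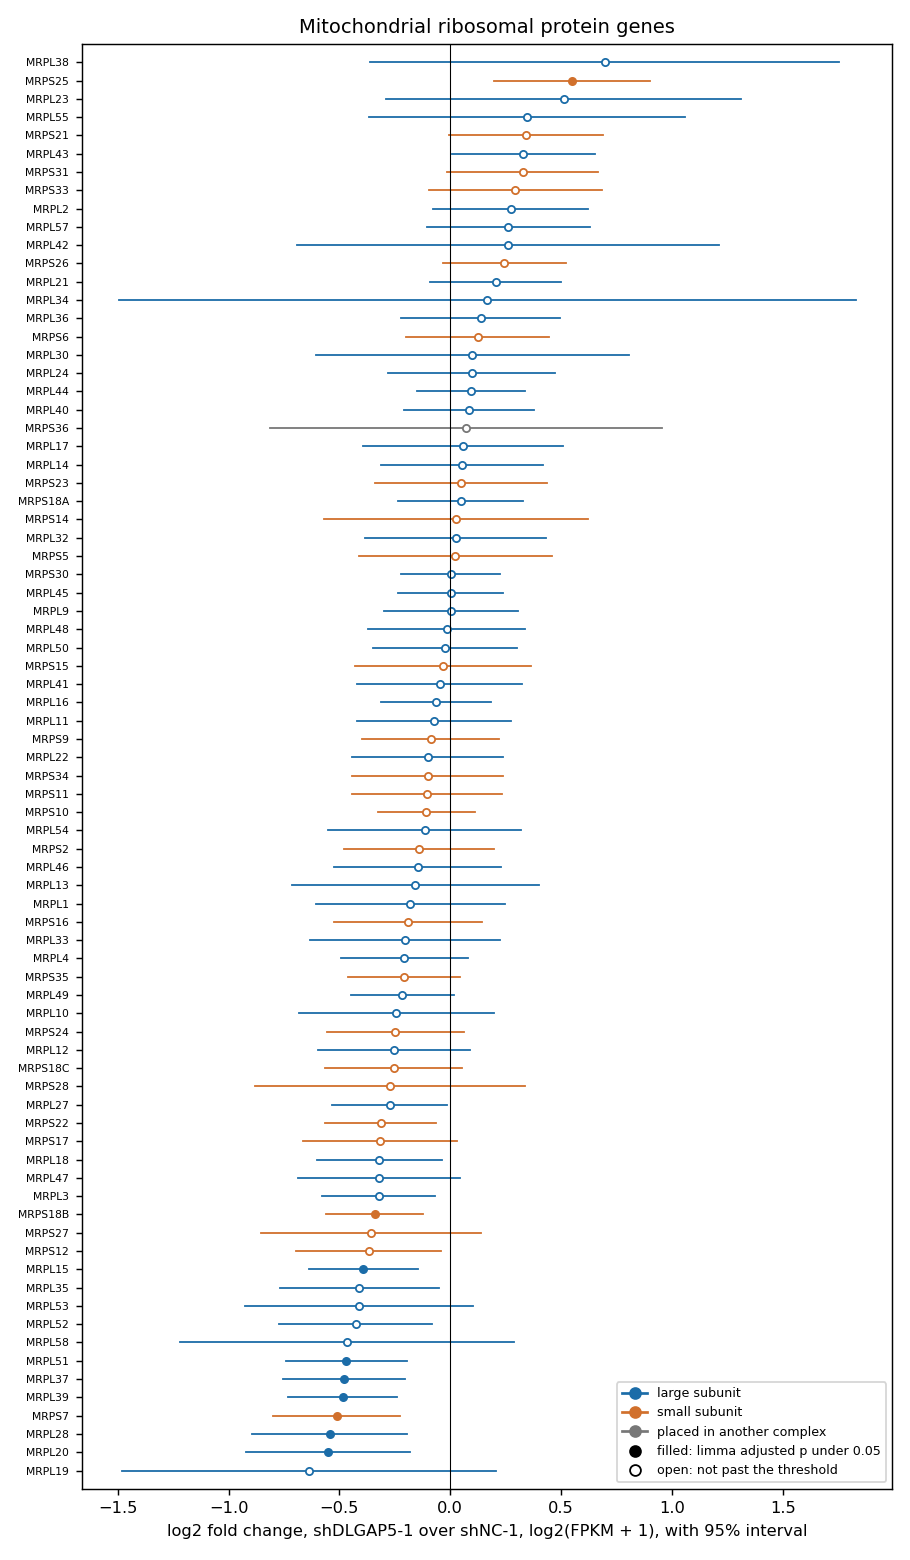
Log2 fold change of shDLGAP5-1 over shNC-1 on log2(FPKM + 1) (horizontal axis) for each of the 78 genes, with its 95% interval from limma; blue is the large subunit, orange the small subunit, grey a protein placed in another complex, and filled points passed the threshold. Of 78 points 9 are filled, 8 of them left of zero, and most intervals cross zero.

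The data also bounded the size of the differences between these libraries, under the scaling reported. The intervals do not include a change of scaling or a spread between hairpins. The 95% interval of the ratio lay within 2-fold either way for 71 of the 78 genes and within 1.5-fold either way for 40, counting those that passed. These are ratios of FPKM + 1, which understate changes of low genes. MRPS30, a mitochondria-specific protein that sits in the large subunit despite its name, had one of the narrower intervals. Its values were 28.36, 29.27 and 28.98 FPKM against 29.73, 27.11 and 30.05 FPKM, a ratio interval of 0.859 to 1.17. MRPL45, of the large subunit at the membrane side of the tunnel exit, had an interval of 0.85 to 1.18. Its values could include reads shared with a pseudogene, as described below.

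Among the 6 falls in the large subunit, 3 were proteins of bacterial descent and 3 were mitochondria-specific. MRPL20, the counterpart of bacterial L20, had 74.52, 80.16 and 98.42 FPKM in the controls and 67.31, 49.21 and 55.46 FPKM after knockdown (log2 fold change −0.55, standard error 0.16, limma adjusted p = 0.0415). Every shDLGAP5-1 library lay under every shNC-1 library, by the least in shDLGAP5-1 replicate 1. MRPL28, the counterpart of bacterial L28, was at 60.7, 70.7 and 83.5 FPKM against 52.48, 51.21 and 42.24 FPKM (−0.54, standard error 0.15, adjusted p = 0.037). For MRPL15, the counterpart of bacterial L15, the values were 108.87, 111.81 and 121.95 FPKM against 93.34, 81.02 and 86.02 FPKM (−0.39, standard error 0.10, adjusted p = 0.0336).

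The mitochondria-specific falls in the large subunit were MRPL39, MRPL37 and MRPL51. MRPL39 had 25.96, 26.19 and 30.21 FPKM in the controls and 20.07, 18.59 and 19.22 FPKM after knockdown (log2 fold change −0.49, standard error 0.11, limma adjusted p = 0.0175), the smallest adjusted p of the 78. MRPL37 was at 65.79, 60.85 and 72.46 FPKM against 45.64, 52.48 and 43.77 FPKM (−0.48, standard error 0.12, adjusted p = 0.0256). MRPL51 was at 96.67, 98.83 and 120.59 FPKM against 73.35, 74.95 and 78.41 FPKM (−0.47, standard error 0.12, adjusted p = 0.0278). None of the 3 overlapped between groups. The standard deviation in FPKM was smaller after knockdown in MRPL39 (0.74 against 2.39), MRPL51 (2.59 against 13.2) and, by less, MRPL37 (4.58 against 5.82). The means of these genes fell as well, so this does not compare their relative spread. Over the 78 genes, the median standard deviation relative to the mean was 12.5% in shNC-1 and 14.9% in shDLGAP5-1.

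In the small subunit 2 genes fell and 1 rose. MRPS7, a protein of the head of the small subunit that binds its RNA, had 46.38, 46.82 and 53.21 FPKM in the controls and 38.5, 32.9 and 30.6 FPKM after knockdown (log2 fold change −0.51, standard error 0.12, limma adjusted p = 0.0234). MRPS18B, one of 3 human relatives of bacterial S18, was at 41.76, 43.4 and 45.42 FPKM against 33.13, 35.49 and 33.82 FPKM (−0.34, standard error 0.09, adjusted p = 0.0365). The gene that rose was MRPS25, a mitochondria-specific protein. It had 6.32, 8.48 and 9.27 FPKM in the controls and 11.35, 12.1 and 12.82 FPKM after knockdown, with no overlap (0.55, standard error 0.15, adjusted p = 0.0366). Each of these 9 genes had an exact two-sided permutation p of 0.1 on the FPKM, the smallest that 3 against 3 libraries allow. The call was kept in 0 to 2 of 6 fits that leave out 1 library, the most for MRPL28 and MRPL39 and 0 for MRPS18B, although the direction was the same in all 15 alternatives.

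**Figure D3:**
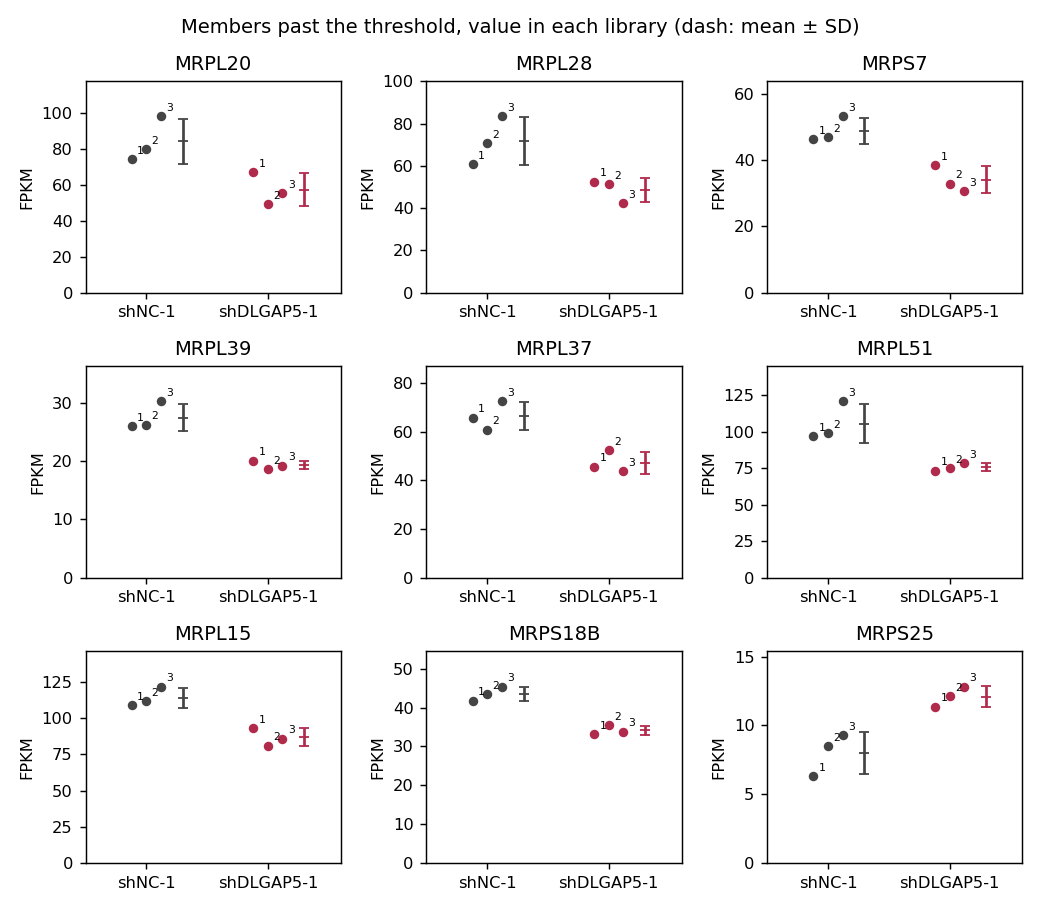
FPKM (vertical axis from 0) of the 9 genes past the threshold in each library, with the replicate number beside each point and the mean ± SD of 3 libraries as a dash with bars; grey is shNC-1 and red shDLGAP5-1. In every panel the 3 red points lie wholly below the grey ones, except in MRPS25, where they lie above.

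In GRCh38 coordinates the falls of the large subunit were MRPL20 (ENSG00000242485, chr1:1401909-1407293, minus), MRPL28 (ENSG00000086504, chr16:366969-371289, minus), MRPL37 (ENSG00000116221, chr1:54184041-54225464, plus), MRPL39 (ENSG00000154719, chr21:25585656-25607517, minus), MRPL51 (ENSG00000111639, chr12:6491886-6493841, minus) and MRPL15 (ENSG00000137547, chromosome 8). Those of the small subunit were MRPS7 (ENSG00000125445, chr17:75261674-75266376, plus) and MRPS18B (ENSG00000204568, chr6:30617840-30626395, plus), and the gene that rose was MRPS25 (ENSG00000131368, chr3:15042460-15065317, minus). The 78 genes are spread over 21 chromosomes, with 8 each on chromosomes 1, 2 and 17 and 0 on X. Except for MRPL39 and MRPL15, each of the 9 overlaps another expressed row of the table (MRPL51 overlaps NCAPD2, MRPS18B overlaps PPP1R10, MRPS25 overlaps NR2C2), so reads could be shared there, since the use of strand in counting is not given in the sources used here.

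The libraries of a group did not move alike. Relative to the mean of the 6 libraries, the 78 genes had a median deviation of −0.04, 0.00 and 0.21 on the log2(FPKM + 1) scale in shNC-1 replicates 1 to 3, and of 0.11, −0.12 and −0.15 in shDLGAP5-1 replicates 1 to 3. Replicate 3 of shNC-1 held the highest value of 37 genes and replicate 1 of shDLGAP5-1 that of 28, 65 of 78 between them. The lowest value of 50 genes was in shDLGAP5-1 replicate 2 or 3. Without shNC-1 replicate 3 the median log2 fold change of the 78 genes was −0.01, and without shDLGAP5-1 replicate 1 it was −0.18.

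Gene length was measured beside this pattern, since most of these transcripts are short. The longest annotated transcript had a median of 1722 bases among the 78 genes against 3413 bases over all genes tested. Other protein-coding genes of 1241 to 2422 bases, the middle range of the 78, numbered 2301. Their median deviation was −0.10, −0.10 and 0.02 in shNC-1 and 0.13, 0.04 and 0.01 in shDLGAP5-1, with the highest value in shDLGAP5-1 replicate 1. Their median log2 fold change was 0.12, where that of the 78 genes was −0.10. With the length trend removed the median of the 78 genes was −0.19 and that of all genes tested 0.02. The falls then included MRPL12 (log2 fold change −0.40, limma adjusted p = 0.0188), MRPS12 of the decoding centre, MRPL52, MRPL18 and MRPL3, which had not passed before. The part of leukocyte RNA in shDLGAP5-1 replicate 3 was not tested beyond leaving that library out, which gave a median of −0.07.

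**Figure D4:**
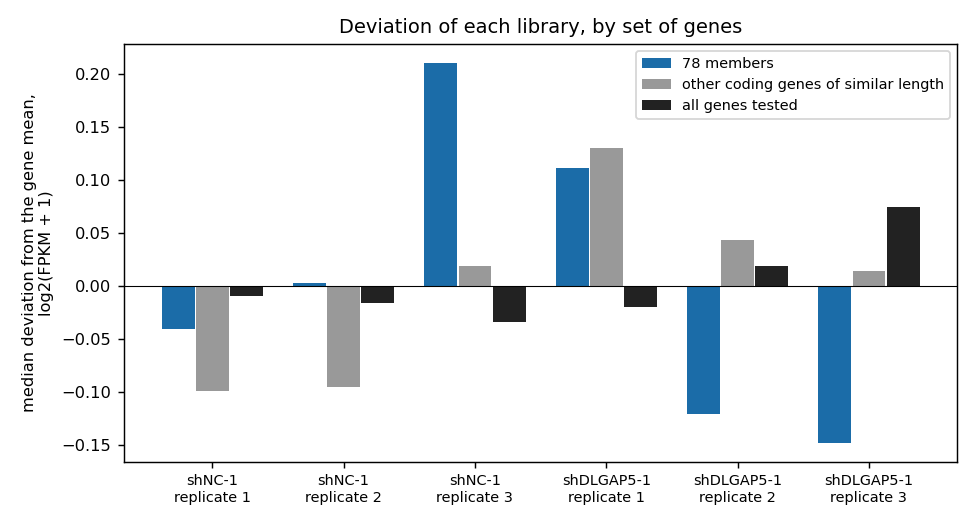
Median deviation from each gene's mean over 6 libraries on log2(FPKM + 1) (vertical axis), per library, for the 78 genes (blue), 2301 other coding genes of similar length (grey) and all 12714 genes tested (black). The blue bar is highest in shNC-1 replicate 3 (0.21) and lowest in shDLGAP5-1 replicate 3 (−0.15), and shDLGAP5-1 replicate 1 stands above zero with both blue and grey.

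By name, 6 of the 49 MRPL genes fell and limma called 0 higher (1 higher and 11 lower at an unadjusted p under 0.05). Over all genes tested, 9.52% fell and 15.3% rose at the adjusted threshold, and at the unadjusted one these shares cannot be smaller. Of the 29 MRPS genes 2 fell and 1 rose, and the median log2 fold change was −0.10 for either name. Placed by structure, the large subunit holds 51 of the genes (6 fell, median −0.07) and the small subunit 26 (2 fell, 1 rose, median −0.11). MRPS36, named as a ribosomal protein but since placed in the oxoglutarate dehydrogenase complex, was at 14.45, 9.74 and 17.36 FPKM against 22.41, 7.55 and 16.61 FPKM, with overlapping groups. Proteins of bacterial descent (46 genes) had 4 falls, 0 rises and a median of −0.12. Mitochondria-specific proteins (31 genes) had 4 falls, 1 rise and a median of −0.025. MRPS18A and MRPS18B, which are relatives of bacterial S18 beside the direct counterpart MRPS18C, were counted as mitochondria-specific. Counted with the proteins of bacterial descent instead, a choice added after the values were seen, they gave 5 falls of 48 there and 3 falls of 29 among the mitochondria-specific proteins. These differences between classes were not tested.

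In 20 of the 78 genes (25.6%) all shDLGAP5-1 libraries lay under all shNC-1 libraries, and in 3 (3.85%) all lay above. Over all genes tested the shares were 18.3% and 25.6%, or 43.9% in either direction. The 3 genes above were MRPS25, MRPS31 and MRPL43. MRPS31 stood at 14.05, 14.51 and 15.52 FPKM against 23.0, 16.26 and 17.35 FPKM (log2 fold change 0.33, limma adjusted p = 0.144), and MRPL43 at 52.59, 51.53 and 56.82 FPKM against 80.51, 66.67 and 57.67 FPKM (0.33, adjusted p = 0.123). For both, the highest value was that of shDLGAP5-1 replicate 1. The estimates of 37 genes were negative in the reported fit and in every alternative, those of 12 positive throughout, and those of 29 changed sign between settings.

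The 3 relatives of bacterial S18 differed in their values. MRPS18B, described above, fell. MRPS18A, which sits in the large subunit, had 21.19, 23.67 and 27.68 FPKM in the controls and 25.38, 24.42 and 24.81 FPKM after knockdown (log2 fold change 0.05, limma adjusted p = 0.804), with a ratio interval of 0.85 to 1.26. MRPS18C, the small subunit protein closest to the bacterial one, was at 15.17, 14.25 and 18.04 FPKM against 14.07, 11.54 and 13.6 FPKM (−0.26, adjusted p = 0.198). Its groups did not overlap, and its ratio interval was 0.676 to 1.04. The difference in response between the 3 genes was not tested.

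A few genes varied widely between libraries of the same group. The coefficient of variation passed 50% in at least 1 group for 5 of the 78, where the median was 12.5% in shNC-1 and 14.9% in shDLGAP5-1. MRPL38, with the largest positive estimate (0.70, limma adjusted p = 0.295), was at 42.92, 16.18 and 61.39 FPKM in the controls and 70.94, 61.86 and 43.23 FPKM after knockdown. MRPL19, with the largest negative one (−0.64, adjusted p = 0.234), was at 6.88, 7.5 and 20.35 FPKM against 6.45, 5.92 and 6.38 FPKM, and shNC-1 replicate 3 alone is far above the other 5. MRPL34 was at 8.65, 9.82 and 28.03 FPKM against 44.19, 5.84 and 12.86 FPKM. MRPL42 was at 3.58, 2.9 and 9.56 FPKM against 8.98, 5.32 and 4.15 FPKM, again high in shNC-1 replicate 3 and shDLGAP5-1 replicate 1. The remaining gene of the 5 was MRPL23, whose values are given above.

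Pseudogenes that carry these genes' names took few reads. Of 75 such rows, 3 reached 1 FPKM in at least 3 libraries. MRPL45P2 was at 1.27, 0.92 and 1.57 FPKM in the controls and 2.93, 2.55 and 3.28 FPKM after knockdown, MRPS31P4 at 1.28 to 2.64 FPKM and MRPS31P5 at 0.6 to 1.47 FPKM over the 6 libraries. Of these pseudogenes, limma called MRPL45P2 higher (log2 fold change 0.81, adjusted p under 0.05), without overlap between groups, and did not call the other 2. The parent genes MRPL45 and MRPS31 are therefore uncertain by the reads such copies could share.

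Many of the 78 genes start beside another coding gene that is read in the opposite direction. Such a head-to-head partner, with starts within 1000 bases by the table's coordinates, was found for 28 genes (35.9%), against 18.9% of all protein-coding genes tested. Of the partners 24 were tested and 5 passed (20.8%), a share under the 24.8% of all genes tested. NCAPD2, a condensin subunit and the partner of MRPL51, fell by 0.52 on the log2 scale, and PPP1R10, a phosphatase regulator and the partner of MRPS18B, also fell by 0.52. Both pairs overlap in the annotation. TCP1, a chaperonin subunit beside MRPL18, fell by 0.82, and SKA3, a kinetochore protein beside MRPL57, fell by 0.62. PELI3, a ubiquitin ligase beside MRPL11, rose by 0.92. Member and partner had estimates of the same sign in 11 of 24 cases, in which MRPL46 and MRPS11, which are each other's partners, count in both directions.

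**Figure D5:**
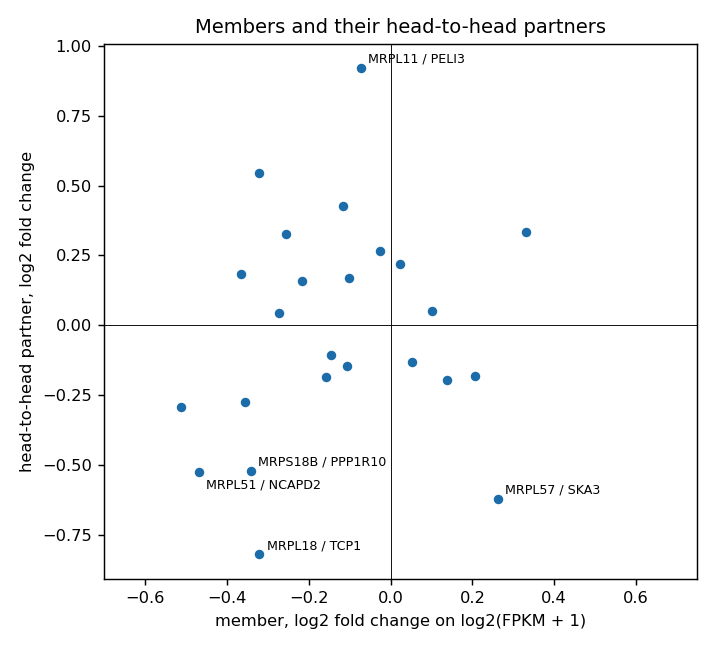
Log2 fold change on log2(FPKM + 1) of each gene (horizontal axis) and of its head-to-head partner (vertical axis) for the 24 genes with a tested partner; names mark the 5 partners that passed the threshold. Points lie in all quadrants, with the same sign in 11 of 24.

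Promoter windows from RefSeq (GRCh38.p14), running from 250 bases before to 50 bases after the start, were matched by symbol for 69 of the 78 genes; MRPL2, MRPL10, MRPL13, MRPL15, MRPL21, MRPL23, MRPL35, MRPS28 and MRPS36 were not matched. RefSeq's start need not be the outermost start in the deposited table. The windows were searched on both strands for the letters of factors known from genes of mitochondrial function. The ETS letters CCGGAAG, to which GABP binds, were in 42% of the 69 windows, against 21.1% of 8981 windows of coding genes tested and 10.3% of all 35116 windows. The YY1 letters AANATGGC were in 36.2%, against 11.1% and 6.58%. The core of the NRF1 motif was in 11.6%, against 12.6% and 5.78%, and the NF-Y letters CCAAT in 29%, against 37.1% and 34.6%. At least one of the ETS, YY1 and NRF1 motifs was in 71% of the windows of the 69 genes and in 20% of all windows. That pooled share was not counted for coding genes tested, where each of these motifs alone was more frequent than in all windows.

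The YY1 letters lay after the start in 22 of the 25 genes that hold them. In 18 of the 69 genes (26.1%) the ATG within the letters was an annotated start codon of GENCODE, against 3.79% of coding genes tested, so these letters also spell the beginning of the protein. Of the 9 genes that changed, 8 had a window, of which 5 held the YY1 letters, 3 the ETS letters, 1 the NF-Y letters (2 matches in MRPL37, not shown) and 0 the NRF1 motif. The YY1 matches and 1 ETS match per gene are shown 5′ to 3′ on the strand of the gene, 30 bases each, with the matched letters in capitals, to let the changed genes be compared at ETS and YY1, the motifs found in the most of the 69 windows. A match that reads CTTCCGG is the ETS letters on the opposite strand. The plus strand is shown for MRPL37, MRPS7 and MRPS18B and the minus strand for the others. MRPL39 and MRPS25 had none of the 4 motifs in this window.
MRPL20 YY1, chr1:1407260-1407289: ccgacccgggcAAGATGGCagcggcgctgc
MRPL37 YY1, chr1:54200187-54200216: cctgcgcgcggcAACATGGCggggtccagg
MRPL51 YY1, chr12:6493223-6493252: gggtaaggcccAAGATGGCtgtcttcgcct
MRPS7 YY1, chr17:75261887-75261916: cgtggccagccAAGATGGCtgcccccgcag
MRPS18B YY1, chr6:30617852-30617881: gggcgtacgtcAAGATGGCggcgtctgtat
MRPL20 ETS, chr1:1407296-1407325: caggggctgacCCGGAAGcgctcgtgacca
MRPL28 ETS, chr16:370513-370542: cggcagatcggCTTCCGGttccggtgggct
MRPL51 ETS, chr12:6493348-6493377: cggcaggcggaCCGGAAGcactgaggcggg
In MRPS7 and MRPS18B the ATG of the match is an annotated start codon. The letters AANATGGC began 16, 33, 22, 20 and 24 bases after the start in MRPL20, MRPL37, MRPL51, MRPS7 and MRPS18B. MRPL20 and MRPL51 each held a further ETS match. A match describes the sequence and does not show that a factor binds there.

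The ribosome also has subunits under other names, and limma called 0 of the 5 (also 0 at an unadjusted p under 0.05). Over all genes tested it called 24.8%, and the share at the unadjusted threshold cannot be smaller. DAP3, a GTP-binding protein of the small subunit first described in cell death, was at 46.33, 50.49 and 65.69 FPKM against 64.46, 79.47 and 41.97 FPKM (log2 fold change 0.16, limma adjusted p = 0.666). AURKAIP1 (−0.26), CHCHD1 (−0.14), GADD45GIP1 (−0.12) and PTCD3 (0.23) had adjusted p from 0.235 to 0.622, and the median of the 5 was −0.12.

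Among the factors that work with this ribosome in translation, 5 of 16 passed, against 24.8% of all genes tested. Of these, 4 were lower and 1 was higher, and the list's median was −0.11 on the log2 scale. TACO1, an activator of cytochrome oxidase translation, was at 28.5, 29.21 and 32.88 FPKM in the controls and 18.3, 19.82 and 19.67 FPKM after knockdown (−0.62, limma adjusted p = 0.00726). MTIF3, initiation factor 3, was at 12.4, 13.86 and 12.98 FPKM against 26.82, 18.52 and 20.94 FPKM (0.70, adjusted p = 0.0162). GFM1, elongation factor G, was at 19.69, 19.92 and 18.04 FPKM against 10.78, 13.08 and 14.5 FPKM (−0.56, adjusted p = 0.0218). None of the 3 overlapped between groups. The remaining falls were MTIF2, initiation factor 2, by 0.43, and GUF1, an elongation factor, by 0.60. Leaving out control replicate 1, 2 or 3 turned the 4 falls into 1, 1 and 2 and lost the rise each time. Leaving out knockdown replicate 1 or 2 turned the falls into 2 and 1, and leaving out knockdown replicate 3 kept all 4. The rise was kept in each fit without 1 knockdown replicate. Over all genes tested, 11.9%, 10.5% and 15.2% passed without control replicate 1, 2 or 3. Without knockdown replicate 1, 2 or 3 these shares were 21.5%, 16.2% and 24.7%.

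Assembly and RNA factors of the organelle included genes that fell and genes that rose. Of 26 assembly factors 2 fell and 2 rose (15.4% called, median −0.09), against 24.8% called over all genes tested. RCC1L, an assembly factor of the RCC1 family, was at 27.0, 26.88 and 30.45 FPKM against 18.43, 19.63 and 18.51 FPKM (log2 fold change −0.55, limma adjusted p = 0.00987). NOA1, a GTPase, rose by 0.54 and FASTKD2, an RNA-binding protein, fell by 0.52; MTERF3 also rose, by 0.50. Of 20 genes of mitochondrial transcription and RNA handling, 5 fell and 2 rose (35% called, median −0.11), against the same 24.8%. POLRMT, the mitochondrial RNA polymerase, was at 8.16, 8.16 and 9.11 FPKM against 12.93, 12.84 and 14.4 FPKM (0.60, adjusted p = 0.00933). PNPT1, a polynucleotide phosphorylase, fell by 0.52 and TFB2M, a transcription factor of the polymerase, by 0.51. TFAM, which packages mitochondrial DNA, the RNA-processing nuclease ELAC2 and the RNA-binding FASTKD5 also fell, by 0.40 to 0.53, and MTERF1, a termination factor, rose by 0.48. Calls of the assembly list were fewer whichever library was left out, whereas those of the RNA list depended on the library. For the RNA list, leaving out knockdown replicate 1 or 3 kept all 5 falls and both rises. Leaving out control replicate 1, 2 or 3 gave that list 0, 0 and 1 falls and 1, 0 and 1 rises. Leaving out knockdown replicate 2 gave it 1 of each. For the assembly list, leaving out control replicate 1, 2 or 3 gave 1 fall each time and 0, 0 and 1 rises. Leaving out knockdown replicate 1 or 3 gave 1 assembly rise, and leaving out knockdown replicate 2 gave 1 assembly fall. The share of all genes tested that passed was 11.9%, 10.5% and 15.2% without control replicate 1, 2 or 3. It was 21.5%, 16.2% and 24.7% without knockdown replicate 1, 2 or 3.

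The messengers that the mitochondrial ribosome reads did not pass. Among the 13 protein-coding transcripts of mitochondrial DNA limma called 0 (0 higher and 1 lower at an unadjusted p under 0.05). Over all genes tested it called 24.8%, and the share at the unadjusted threshold cannot be smaller. Their log2 fold changes ran from −0.45 to 0.44 around a median of 0.01. The smallest adjusted p was that of MT-ND4L, a subunit of complex I, at 2799.2, 2671.41 and 2032.99 FPKM against 1731.36, 2006.02 and 1896.29 FPKM (adjusted p = 0.128), without overlap. MT-CO2, a subunit of cytochrome oxidase, was at 4492.0, 4327.26 and 4226.82 FPKM against 6745.44, 6248.42 and 4578.82 FPKM (adjusted p = 0.162), likewise without overlap, and MT-ND3 of complex I had an adjusted p of 0.175. Without shDLGAP5-1 replicate 3, 2 of the 13 were higher, and after quantile normalization 1 was lower. Of all genes tested, 24.7% and 23.4% passed in these fits, in that order.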

How the data were processed

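The authors deposited 1 table of 58825 genes, with values taken here as FPKM. That unit means fragments per gene scaled to transcript length and library size. The unit was read from the values, since the file header names none. Aligner, quantifier, annotation and use of strand: not given in the sources used here. GENCODE release 29 (GRCh38) holds 99.5% of the identifiers. Libraries were grouped by title; the 3 columns named by a construct number were assigned to shDLGAP5-1 by elimination. The 12714 genes that reached 1 FPKM in 3 or more libraries were fitted by limma 3.58.1 (R 4.3.3, variance trend on) using log2(FPKM + 1), a scale that understates changes of low genes, and p-values were adjusted by Benjamini-Hochberg over all of them. The scripts were tested on simulated data with planted changes larger than those of the members that passed. That test does not cover changes of their size. Members, lists and the naming rule (genes past the threshold without overlap, highest and lowest levels, the MRPS18 genes, smallest p per list) were chosen with earlier results of these data known; MRPL19, MRPL34, MRPL38, MRPL43, MRPL45, MRPS30, MRPS31, MRPS36, MTIF2, GUF1, MTERF3, MTERF1, TFAM, ELAC2, FASTKD5, KRT19, genes named with the length trend removed and partner genes were named after their values were seen. Alternatives are in the closing section.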

Additional observations from a re-analysis of the deposited data

How the results depend on the processing

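DLGAP5 kept its direction and call in all 15 alternatives (log2 fold change −2.58 to −2.19). The median of the 78 genes, −0.10 as reported, ran from −0.22 with median-ratio scaling to −0.01 without shNC-1 replicate 3; its distance from the all-gene median was −0.14 as reported and −0.25 to −0.04 in the alternatives. The 8 falls numbered 14 after scaling to one total, 17 with the length trend removed, 2 with no filter on low values (31433 genes tested) and 0 to 10 in fits without 1 library. With the replicate block there were 0 falls and 0 rises, and 1464 calls over all genes against 3155 as reported, 2071 with no filter and 1335 to 3141 without 1 library. With the replicate block and the length trend removed together there were 9 falls and 0 rises, 2157 calls over all genes, and 1 of the 13 transcripts of mitochondrial DNA lower. Median-ratio scaling moved the median of all genes from 0.03 to −0.07. Calls over all genes numbered 2664 after scaling to one total, 3320 with median-ratio scaling and 3624 with the length trend removed. The 1 rise numbered 0 with no filter, with same-total scaling and with median-ratio scaling, and 0 to 1 without 1 library. Same-numbered libraries did not deviate together (correlations −0.16, 0.02 and −0.16). With 3 libraries per group, this cannot show whether libraries of the same number were prepared as pairs. A pseudocount of 0.1 and a filter of 5 FPKM gave 8 falls and 1 rise, and quantile normalization 7 and 1. Of all genes tested, 24.7%, 25.6% and 23.4% passed with these settings, in that order. Low members such as MRPL23 are limited by depth, which is known only approximately.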
